A study of Mus musculus with 6 samples.

Results

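The antioxidant genes directly controlled by NRF2 were examined in chromatin accessibility profiles of mouse peripheral blood. The set held 10 genes: Hmox1, Nqo1, Gclc, Gclm, Txnrd1, Txn1, Srxn1, Slc7a11, Prdx1 and Gsr. They were taken by name as textbook NRF2 targets, and the rule uses no measured value. A region belonged to a gene when the summit of its accessibility peak lay in the gene body or within 10 kb of one of the gene's annotated transcription starts. Over all libraries 30 such regions were found, of 62876 regions in the whole data set. Of these, 12 lay within 1 kb of a start and are called promoter regions, 5 lay farther upstream and 13 lay in gene bodies.

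The assay was ATAC-seq, in which the Tn5 transposase cuts and tags open chromatin, so that a tall pileup of reads marks an accessible site. The study asked whether chromatin accessibility of blood cells differs after return from high altitude. Of the 6 libraries, 3 were controls and 3 were from the high altitude de-acclimatization (HADA) group. Per the study's methods, male C57BL/6j mice bought at 8 weeks of age spent 4 weeks in a hypobaric hypoxia chamber and were then moved to normoxia, while control mice stayed in normoxia throughout. No allele or drug was used in either group, and the day of blood sampling for this assay is not stated. Both groups shared the same preparation of unsorted leukocytes after red cell lysis, while the study's results text speaks of mononuclear cells. The labels do not say that each library was 1 mouse, so p-values measure the spread between libraries, which may be technical.

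NRF2 is a transcription factor that is bound in the cytoplasm by KEAP1 and sent to degradation. When electrophiles or oxidants modify KEAP1, NRF2 reaches the nucleus, pairs with a small MAF protein and binds the antioxidant response element, while BACH1 occupies the same element as a repressor. The genes described here encode the enzymes that make and recycle glutathione, the thioredoxin and peroxiredoxin system, the cystine importer, and the enzymes that degrade heme and reduce quinones.

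The core letters of the antioxidant response element, TGACNNNGC, were found on either strand within 100 bases of the summit in 8 of the 30 regions (26.7%), against 8.17% of all 62876 regions, 9.42% of those within 1 kb of a start and 7.55% of the others. The genes were picked as known NRF2 targets, so this share is a description and not a test. A letter match does not show that the site is bound. The matches are given here with 10 bases on each side, in the direction in which the core reads, with the core in capitals, because they show how the elements at the 7 genes with a match differ. All sequence is from the mouse build GRCm39.

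Hmox1, 7.3 kb upstream, chr8:75812941-75812969: agatcctaacTGACCCAGCcctccccaca
Hmox1, 3.8 kb upstream, chr8:75816368-75816396: gaacagagggTGACTCAGCaaaatctgtc
Gclc, 3.8 kb upstream, chr9:77658017-77658045: cgcctcaccgTGACTCAGCactctgcgcg
Gclm, promoter, chr3:122039291-122039319: tggaagacaaTGACTAAGCagaaacctca
Srxn1, promoter, chr2:151947462-151947490: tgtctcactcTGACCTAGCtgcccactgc
Txnrd1, promoter region at an internal start, chr10:82723470-82723498: gctacactagTGACCAAGCccgagggcaa
Slc7a11, intron, chr3:50392672-50392700: ctattcagagTGACTTGGCactattctat
Prdx1, start of a longer transcript, chr4:116532202-116532230: gcatagagcaTGACTTGGCctactgtcct

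The Hmox1 site at 3.8 kb and the Gclc site carried the same core, TGACTCAGC. In both it overlapped TGANTCA, the letters bound by the AP-1 family, which were found near the summits of 3 of the 30 regions (10%) and of 5.5% of all regions. The Slc7a11 and Prdx1 sites shared TGACTTGGC, and the other 4 cores were each found once. No match lay within 100 bases of a summit at Nqo1, Txn1 or Gsr, which says only that these letters are not in those windows.

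The summit windows of 3 regions away from untranslated exons are printed whole, since the upstream regions of Hmox1 and Gclc and the tallest region of Slc7a11 are described below. Each run is 201 bases, centred on the summit and written 5′ to 3′ on the strand of the gene, with the core in capitals. On this strand the core reads as its reverse complement in all 3.

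Hmox1, 3.8 kb upstream, chr8:75816355-75816555, plus strand: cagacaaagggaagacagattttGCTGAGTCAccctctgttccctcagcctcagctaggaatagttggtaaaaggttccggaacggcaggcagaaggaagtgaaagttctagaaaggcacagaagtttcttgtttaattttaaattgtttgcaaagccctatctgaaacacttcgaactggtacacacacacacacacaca
Gclc, 3.8 kb upstream, chr9:77657920-77658120, plus strand: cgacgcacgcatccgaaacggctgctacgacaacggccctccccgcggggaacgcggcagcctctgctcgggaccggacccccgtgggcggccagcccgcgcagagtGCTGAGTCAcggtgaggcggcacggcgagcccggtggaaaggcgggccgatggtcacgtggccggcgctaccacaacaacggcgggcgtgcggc
Slc7a11, intron, chr3:50392514-50392714, minus strand: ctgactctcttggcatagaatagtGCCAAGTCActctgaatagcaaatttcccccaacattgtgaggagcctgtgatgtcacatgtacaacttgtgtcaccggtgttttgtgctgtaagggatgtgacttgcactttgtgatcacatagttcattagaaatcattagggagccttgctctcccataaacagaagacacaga

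The Gclc window was 74.1% G and C with 31 CpG pairs and lay 19 bp from a start of Gm68850, an annotated non-coding gene. The Hmox1 window was 43.8% G and C with 3 CpG pairs, 3786 bp from the nearest start, that of Hmox1.

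Each peak list was called on its own library. The lists held 34045 to 41475 peaks on the main chromosomes in the controls and 44044 to 45799 in HADA libraries, and the background pileup over the genome, a measure of relative depth, ranged over 1.69 to 2.05 and 1.99 to 2.34. Control 3 stood apart, with the fewest peaks and the highest level at many regions described below, and the values without it are given beside the marker lists. The level of a region is given as its summit pileup divided by the background of its library. For tests, log2 pileups were centred in each library on the median of the 23970 regions with a peak in all 6 libraries, since this median was itself 0.38 higher (log2 of pileup over background) in HADA. Differences were fitted with limma over all 23970 regions with Benjamini-Hochberg adjustment and called at an adjusted p under 0.05. Single levels were compared with a two-sided exact permutation test, whose smallest p is 0.1 for 3 libraries against 3.

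Of the 30 regions, 17 had a peak in all 6 libraries and entered the fit. These were 10 promoter regions, 1 for each gene, 2 upstream regions and 5 body regions. In HADA 9 of the 17 were lower and 1 was higher. Over all 23970 regions 24.1% were called lower and 17.9% higher. Without adjustment 10 of the 17 were lower and 2 higher at a p under 0.05, where 29.0% and 23.5% of all regions were. The median log2 difference of the 17 was −1.11, against −0.04 over all regions, and 14 of the 17 differences were negative. The centred log2 pileups of the groups did not overlap at 12 regions that were lower and 2 that were higher in HADA, where 31.2% and 29.3% of all regions did so. The lower calls were 4 of 10 promoter regions, 1 of 2 upstream regions and 4 of 5 body regions. Among all regions within 1 kb of a start 9.65% were called lower and 20.3% higher, and among those farther away 41.5% were lower and 15.0% higher. These shares count a start of any gene, whereas the classes of the 17 use starts of the gene itself. By the split of the shares, the Gclc upstream region (19 bp from Gm68850) and the Txnrd1 body region (63 bp from Eid3) lie near a start. With regions in at least 3 libraries fitted as well, and a missing library given the lowest pileup of its list, 24 regions of these genes gave 11 lower and 1 higher call, and all 44013 regions gave 9717 lower and 9979 higher. The 2 added calls, in an exon of Slc7a11 and upstream of Prdx1, had peaks in all control libraries and not in all HADA libraries, so the filter and the filled values fixed their direction and they are no support. The 9 lower calls belonged to 4 genes, Slc7a11, Gsr, Srxn1 and Hmox1, so regions of 1 gene are not separate genes.

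**Figure D1:**
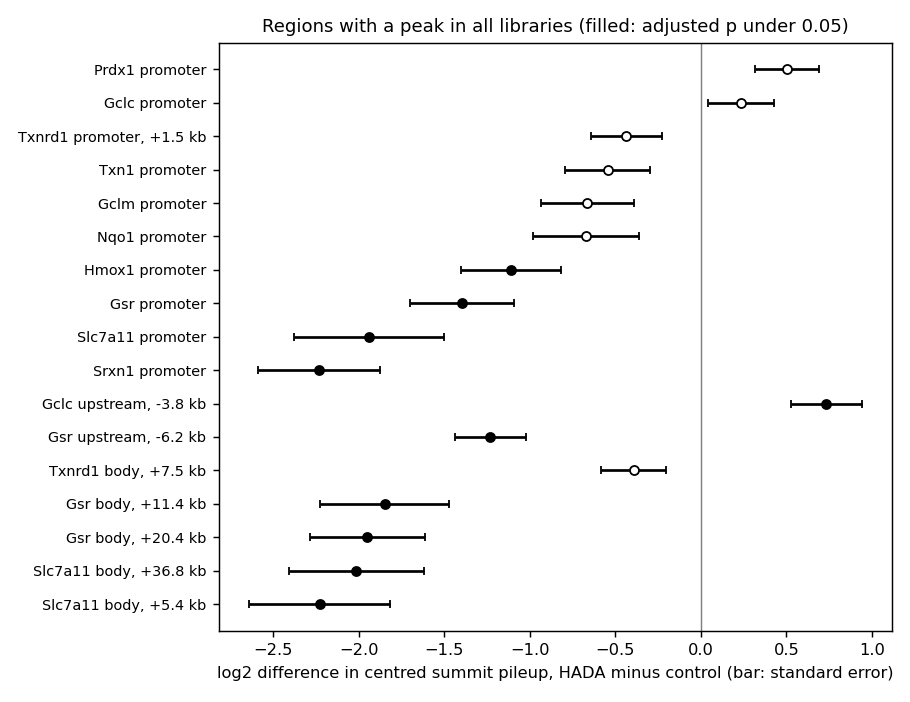
Log2 difference in centred summit pileup, HADA minus control, for the 17 regions with a peak in all 6 libraries (x axis), grouped as promoter, upstream and body regions with the distance in kb from the start of the canonical transcript (bars are limma standard errors, filled points have an adjusted p under 0.05). The 9 filled points left of zero belong to Hmox1, Srxn1, Slc7a11 and Gsr, and the only one to the right is the upstream region of Gclc. None of the filled points was called with the rank of the fold and 1, the Gsr upstream region, with its log2, and under the rank the Slc7a11 promoter and the Gsr region at 11.4 kb changed sign.

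The calls depended on what was measured at the summit. The deposited fold enrichment divides the summit by the local background around the peak, which may itself hold reads of that peak. When each region was ranked by that fold within its own library, limma called 0 of the 17 regions, while 1574 regions of all 23970 were called higher and 1146 lower. At an unadjusted p under 0.05 this left 1 lower and 1 higher of the 17, against 15.4% and 20.2% of all regions. The measure and the scale were also changed 1 at a time. The rank of the pileup kept 8 lower calls and 1 higher, with 4785 higher and 3855 lower over all regions. The log2 fold without ranking, centred as before, left 1 lower call and 0 higher, with 1117 higher and 1277 lower over all regions. That call was the Gsr upstream region (limma adjusted p = 0.0478). With the pileup over background and no centring, which moved the median of all regions to 0.34, 7432 regions were higher and 4396 lower, and at the 10 genes 2 were higher and 9 lower. Quantile normalization gave 5399 higher and 4090 lower, with 1 and 9 at the 10 genes. Centring on shared regions within 1 kb of a start gave 2394 higher and 6830 lower, with 0 and 13 at the 10 genes.

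Slc7a11 encodes the cystine importer xCT, which brings in the amino acid that limits glutathione synthesis. Its promoter region (chr3:50397311-50398740, summit 43 bp upstream of the canonical start) had levels of 68.1, 52.1 and 161.8 in control 1, 2 and 3 and 38.9, 26.6 and 21.5 in HADA 1, 2 and 3. All HADA libraries lay below all control libraries, with control 3 highest. The log2 difference was −1.94 ± 0.44 (SE, n = 3 each, limma adjusted p = 0.0143), a 3.84-fold lower centred pileup, and its sign turned with the rank of the fold (0.07 normal scores). This call was lost without HADA 2 (adjusted p = 0.0537).

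The region with the highest control levels of the set lay in an intron of Slc7a11, 5449 bp into the gene (chr3:50390505-50393752), and carries the TGACTTGGC core printed above 72 bases upstream of the summit. It stood at 235.2, 186.5 and 402.3 in the controls and 124.3, 66.8 and 45.3 in HADA libraries. The groups were apart, with means of 274.6 ± 113.2 and 78.8 ± 40.9 (SD, n = 3 each, exact permutation p = 0.1). The log2 difference was −2.23 ± 0.41 (SE, limma adjusted p = 0.0101). The 50 bases at this summit occur 2 times in the genome, so some reads may belong to the other copy. A region in an intron 36840 bp into the gene (chr3:50360046-50361710) had 87.1, 65.2 and 167.8 in the controls and 46.1, 30.1 and 22.9 in HADA libraries. These did not overlap, and the log2 difference was −2.01 ± 0.39 (SE, limma adjusted p = 0.0110). In a coding exon 61730 bp into the gene, a small peak was listed in the 3 control libraries, at 8.89, 7.79 and 21.9, and in HADA 1 alone, at 5.98 (Fisher's exact p = 0.4). The annotation holds long isoforms that stretch the gene over 551096 bp, and a further region 308257 bp from the canonical start had 4.15, 6.82 and 4.37 in the controls and 4.27 and 4.40 in HADA 1 and HADA 3, close to the limit of calling.

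**Figure D2:**
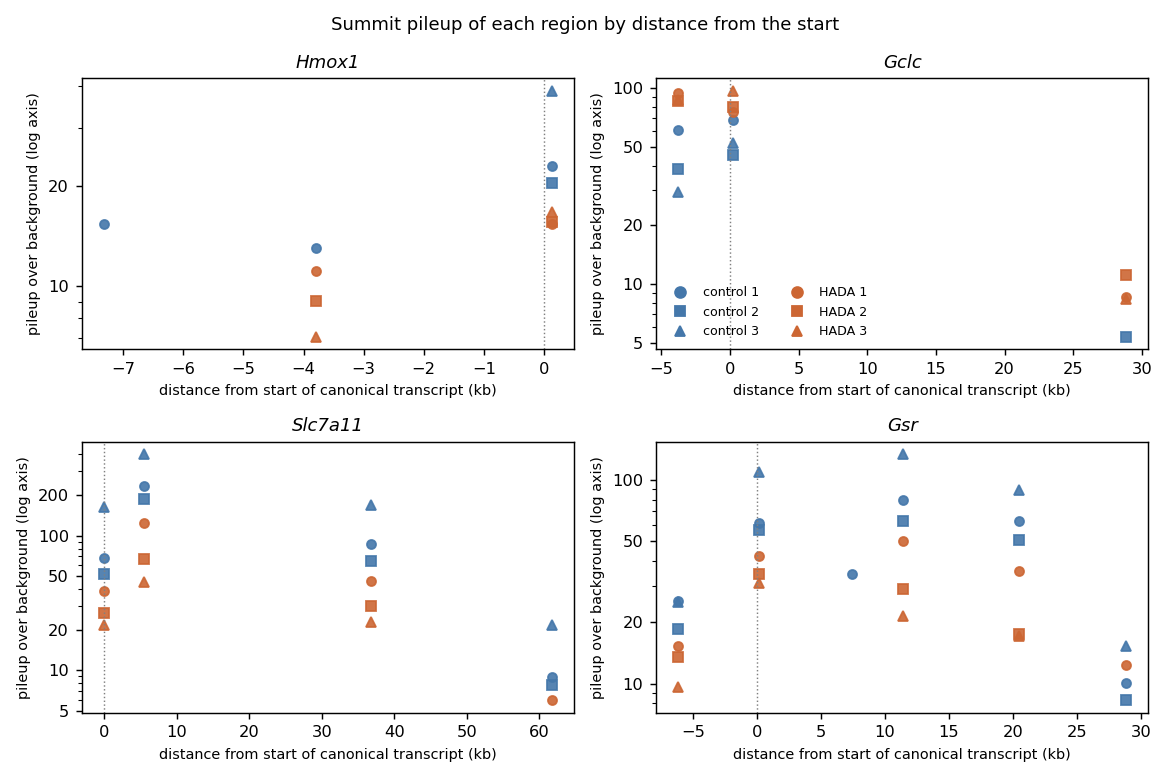
Summit pileup over library background (log y axis) of each region of Hmox1, Gclc, Slc7a11 and Gsr against its distance from the start of the canonical transcript (x axis, kb, dotted line at the start), with blue points for control and orange for HADA libraries and no point where a library has no peak. At Slc7a11 and Gsr no HADA point lies above a control point from 6.2 kb upstream of Gsr to 20.4 kb into it and from the start of Slc7a11 to 61.7 kb into it, whereas at both left-hand Gclc regions every HADA point lies above. The Slc7a11 region 308 kb from the start is not drawn.

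Gsr encodes glutathione reductase, which returns oxidized glutathione to its reduced form. At its promoter region (chr8:34143048-34144214, summit 95 bp into the gene) the levels were 61.6, 56.5 and 108.8 in the controls and 42.3, 34.6 and 31.2 in HADA libraries. The groups did not overlap, and the log2 difference was −1.40 ± 0.30 (SE, n = 3 each, limma adjusted p = 0.0132), a call that was lost without HADA 2 (adjusted p = 0.0524). An upstream region 6189 bp before the start (chr8:34136747-34137369) had 25.5, 18.5 and 25.1 in the controls and 15.4, 13.6 and 9.67 in HADA libraries, with a log2 difference of −1.23 ± 0.21 (SE, limma adjusted p = 0.00927). It is closer to a start of Ubxn8, at 4623 bp, than to Gsr, so the gene it serves cannot be told from its position.

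Within introns of Gsr, the region 20449 bp into the gene (chr8:34163222-34164522) had 62.8, 50.6 and 89.1 in the controls and 35.9, 17.6 and 17.1 in HADA libraries. All HADA values were again lower, by a log2 difference of −1.95 ± 0.34 (SE, limma adjusted p = 0.00954). The region 11360 bp into the gene (chr8:34154271-34156712) had 79.4, 62.8 and 133.9 in the controls and 49.99, 29.1 and 21.5 in HADA libraries, a log2 difference of −1.85 ± 0.38 (SE, limma adjusted p = 0.0118) whose sign turned with the rank of the fold. The 50 bases at its summit occur 7 times in the genome, so the reads cannot be placed there with certainty. A peak 7375 bp into the gene was listed in control 1 only, at 34.4, and one 28837 bp into the gene had 10.1, 8.28 and 15.3 in control libraries and 12.4 in HADA 1 (Fisher's exact p = 0.4). The region just outside the 10 kb limit, at 11337 bp, sits 66 bp from a start of Ubxn8 and went the other way, with 45.0, 32.1 and 37.7 in the controls and 64.9, 64.8 and 69.5 in HADA libraries (log2 difference 0.43, limma adjusted p = 0.0687).

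Srxn1 encodes sulfiredoxin, which repairs over-oxidized peroxiredoxins. Its promoter region (chr2:151946793-151947982), with the summit 88 bp into the gene and the TGACCTAGC core 56 bases before the summit, had levels of 109.0, 85.2 and 199.5 in the controls and 44.0, 36.2 and 24.6 in HADA libraries. The lowest control library stood above the highest HADA library, with means of 131.2 ± 60.3 and 34.9 ± 9.75 (SD, n = 3 each, exact permutation p = 0.1). The log2 difference, −2.23 ± 0.36 (SE, limma adjusted p = 0.00903), corresponds to a 4.70-fold lower centred pileup and was the most negative of the 10 promoter regions. A small peak 6503 bp into the gene was listed in control 3, at 6.01, and HADA 2, at 5.52.

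Hmox1 encodes heme oxygenase 1, which opens the heme ring and is held down by BACH1 until heme or NRF2 displaces it. Its promoter region (chr8:75819926-75820715, summit 131 bp into the gene) was lower than those of the other genes except Nqo1, with 23.1, 20.4 and 38.8 in the controls and 15.4, 15.6 and 16.7 in HADA libraries. The groups were apart, and the log2 difference was −1.11 ± 0.29 (SE, n = 3 each, limma adjusted p = 0.0211). This call was lost when HADA 1 or HADA 2 was left out (adjusted p = 0.0627 and 0.0721). With the rank of the pileup it was also lost (limma adjusted p = 0.0504).

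The upstream element of Hmox1 3.8 kb before the start (chr8:75816112-75816716) was listed in control 1, at 13.03, and in all 3 HADA libraries, at 11.1, 9.04 and 7.04 (Fisher's exact p = 0.4). Its core is the one printed above, 73 bases upstream of the summit. The highest of the 4 listed levels was that of the control library, and control 2 and control 3 had no peak there. The more distant element (chr8:75812808-75813117, 7321 bp upstream) was listed in control 1 only, at 15.4. A region just beyond the 10 kb limit, 11938 bp upstream, was present in every library, with 23.1, 12.2 and 25.1 in the controls and 23.9, 20.6 and 15.0 in HADA libraries. These overlapped (log2 difference −0.36, limma adjusted p = 0.331).

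**Figure D3:**
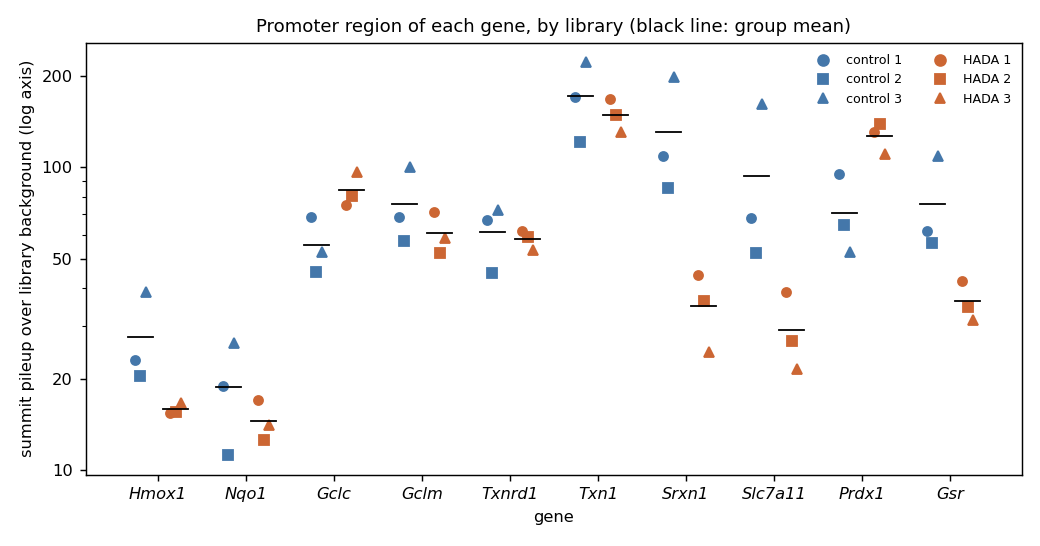
Summit pileup over library background (log y axis) at the promoter region of each of the 10 genes (x axis), with 3 control libraries in blue, 3 HADA libraries in orange and black lines at the group means. The HADA points lie below all control points at Hmox1, Srxn1, Slc7a11 and Gsr and above them at Gclc and Prdx1, and they overlap at the other 4 genes.

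Gclc encodes the catalytic subunit of glutamate-cysteine ligase, the rate-limiting enzyme of glutathione synthesis. Its upstream region 3777 bp before the start (chr9:77657584-77658786), with the TGACTCAGC core 11 bases from the summit, was the only region of the set called higher. It had levels of 61.0, 38.5 and 29.5 in the controls and 94.0, 85.4 and 87.1 in HADA libraries. The lowest HADA library exceeded the highest control library, with means of 88.8 ± 4.58 and 43.0 ± 16.2 (SD, n = 3 each, exact permutation p = 0.1). The log2 difference was 0.73 ± 0.21 (SE, limma adjusted p = 0.0266), a 1.66-fold higher centred pileup. The call was lost without HADA 1, HADA 2 or HADA 3 (adjusted p = 0.0796, 0.0763 and 0.0882), with centring on regions near starts (adjusted p = 0.0626) and with the rank of the fold (adjusted p = 0.251).

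The promoter region of Gclc (chr9:77661709-77662428) had 68.7, 45.3 and 52.5 in the controls and 75.2, 80.3 and 96.7 in HADA libraries. These levels were apart, but the centred log2 difference was 0.23 ± 0.19 (SE, limma adjusted p = 0.347), and it was negative by the rank of the fold. An intron region 28845 bp into the gene (chr9:77689548-77690915) was listed in control 2, at 5.36, and in the 3 HADA libraries, at 8.55, 11.05 and 8.36 (Fisher's exact p = 0.4). Gclm encodes the modifier subunit of the same ligase. Its promoter region (chr3:122038794-122039999), which holds the TGACTAAGC core 11 bases from the summit, had 68.7, 57.0 and 100.6 in the controls and 71.4, 52.2 and 58.5 in HADA libraries. The levels overlapped, and the log2 difference of −0.66 ± 0.27 (SE, n = 3 each) missed the threshold (limma adjusted p = 0.0792).

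Of the thioredoxin system, Txn1 encodes cytosolic thioredoxin, and its promoter region (chr4:57955682-57957119, 257 bp upstream) was the tallest promoter region of the set. It had 170.6, 121.7 and 222.5 in the controls and 167.9, 149.1 and 130.6 in HADA libraries. The levels overlapped, and the log2 difference was −0.54 ± 0.25 (SE, n = 3 each, limma adjusted p = 0.109). Txnrd1 encodes the reductase that recharges thioredoxin. Its promoter region (chr10:82694500-82696873) had 66.9, 44.8 and 72.1 in the controls and 61.5, 58.8 and 53.2 in HADA libraries, with a log2 difference of −0.44 ± 0.21 (SE, limma adjusted p = 0.123) that was positive by the rank of the fold.

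In the body of Txnrd1, the region 7510 bp into the gene (chr10:82701977-82703034) lies 63 bp from the start of Eid3 and had 17.2, 10.7 and 13.1 in the controls and 15.8, 14.1 and 10.6 in HADA libraries. These overlapped (log2 difference −0.39 ± 0.19, SE, limma adjusted p = 0.127, positive by the rank of the fold). The region 31871 bp into the gene was listed in control 2 and control 3, at 9.25 and 7.65, and in the HADA libraries, at 15.0, 17.6 and 17.6. All 3 HADA levels lay above both control levels. Another body region, 34720 bp into the gene, was listed in HADA 1 only. So was the region 28427 bp into the gene, which holds the TGACCAAGC core and counts among the promoter regions because it lies 760 bp from a start of another annotated Txnrd1 transcript.

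Prdx1 encodes peroxiredoxin 1, which removes hydrogen peroxide with electrons from thioredoxin. Its promoter region (chr4:116542505-116543378) had 94.8, 64.7 and 52.5 in the controls and 131.2, 139.1 and 110.8 in HADA libraries. The lowest HADA library exceeded the highest control library, with means of 127.0 ± 14.6 and 70.7 ± 21.8 (SD, n = 3 each, exact permutation p = 0.1). After centring the log2 difference was 0.50 ± 0.19 (SE, limma adjusted p = 0.0595), which missed the threshold. At the start of a longer Prdx1 transcript, 10552 bp farther upstream, a small peak with the TGACTTGGC core was listed in control 1 and control 2, at 4.15 and 4.87. Upstream of that start, 6536 bp away, a region (chr4:116525226-116525929) had 10.1, 10.2 and 9.29 in the controls and 6.84 and 5.72 in HADA 1 and HADA 3.

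Nqo1 encodes the quinone reductase whose induction is the common readout of NRF2 activity. It had a single region, at its promoter (chr8:108129263-108130527, 213 bp upstream), with 19.0, 11.2 and 26.2 in the controls and 17.1, 12.6 and 14.1 in HADA libraries. Control 2 was the lowest and control 3 the highest of the 6, and the groups overlapped. The log2 difference was −0.67 ± 0.31 (SE, n = 3 each, limma adjusted p = 0.112), called only when control 2 was left out (adjusted p = 0.0394) and positive by the rank of the fold.

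In peak number the 10 genes held 27, 27 and 24 peaks in the controls and 26, 22 and 23 in HADA libraries, which overlapped (exact permutation p = 0.2). Per 10000 peaks of a library this came to 6.70 ± 0.30 in the controls and 5.29 ± 0.49 in HADA libraries (SD, n = 3 each, exact permutation p = 0.1). No region of these genes had a peak in all libraries of 1 group and none of the other. Over all 62876 regions 7.01% had peaks in 3 HADA and 0 control libraries and 1.88% in 3 control and 0 HADA libraries.

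The local background around each summit was solved from the fold and p-value as well, because it is what the fold divides by. Each list was called on its own library with options not stated, so this background may hold the peak's own reads. A taller summit may then raise it by itself, and the values below are a description and not a test. At the Slc7a11 region 5449 bp into the gene, the local background was 22.1, 17.0 and 44.9 times the genome-wide one in the controls and 12.1, 6.20 and 4.46 times in HADA libraries. The summit and this background were thus lower together, and the deposited fold was 10.4, 10.7 and 8.86 in the controls and 9.95, 10.0 and 9.33 in HADA libraries. At the Srxn1 promoter the local background was 6.27, 4.66 and 10.3 in the controls and 2.23, 1.96 and 1.73 in HADA libraries, and the fold 16.0, 16.7 and 18.5 against 16.8, 14.9 and 11.6, which overlapped. At the Gclc upstream region both were higher in HADA, with a local background of 7.79, 5.27 and 4.87 in the controls and 10.0, 10.8 and 11.6 in HADA libraries. The folds there overlapped, at 7.35, 6.77 and 5.55 in the controls and 9.02, 7.62 and 7.27 in HADA libraries. At the Gsr upstream region the local background was 2.40 to 2.68 in the controls and 1.68 to 2.20 in HADA libraries, and the fold was 7.96, 6.58 and 8.35 in the controls and 6.03, 5.84 and 4.77 in HADA libraries, which did not overlap (limma adjusted p = 0.0599 by its rank).

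**Figure D4:**
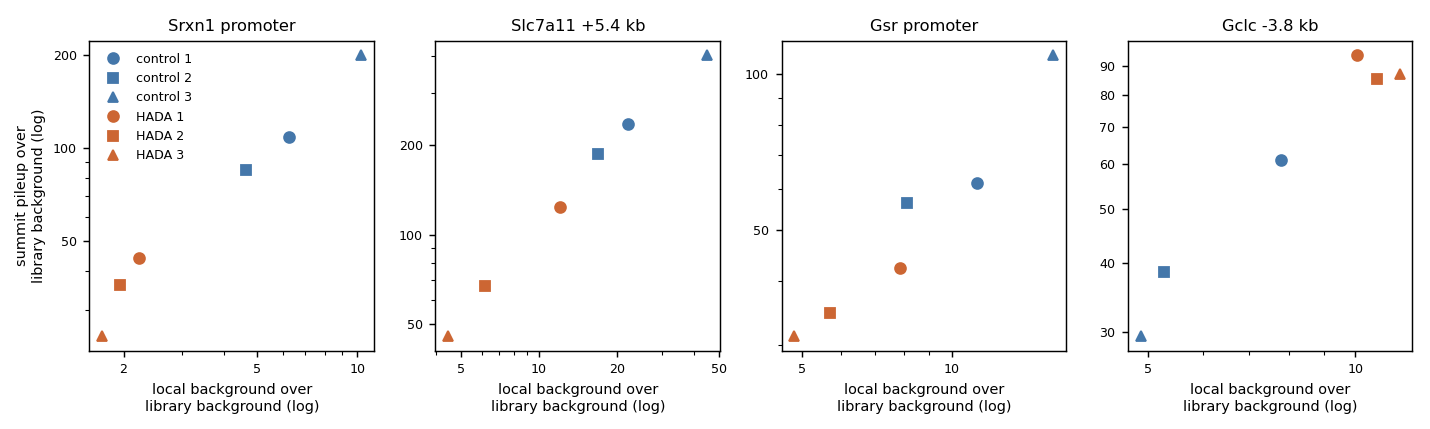
Summit pileup over library background (log y axis) against local background over library background (log x axis) for the Srxn1 promoter, the Slc7a11 region 5.4 kb into the gene, the Gsr promoter and the Gclc region 3.8 kb upstream, 1 point per library (blue control, orange HADA). In the first 3 panels the HADA libraries are lower on both axes, and in the Gclc panel they are higher on both. The local background may hold reads of the peak itself, so the axes are not independent.

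The cells were an unsorted mixture, and fewer cells of a type with an open site cannot be told apart from less open chromatin per cell. Marker genes of blood cell types were therefore summed over their promoters. The neutrophil list, of which 8 of 10 genes had a promoter peak, summed to 272.5, 186.5 and 458 in the controls and 153, 122 and 90.1 in HADA libraries, lower in all HADA libraries (exact permutation p = 0.1). Its S100a8, S100a9, Cxcr2, Csf3r, Mmp8 and Mmp9 had a peak in every library, Ltf in control 2 and control 3 only, Ly6g in control 3 alone and Camp and Ngp in none. Mmp9, the largest term in every HADA library, overlapped between groups. Of the 17 fitted regions, 7 ordered the 6 libraries by pileup over background, the scale of that sum, exactly as the neutrophil sum did, from control 3, control 1 and control 2 down to HADA 1, HADA 2 and HADA 3. They were the Srxn1 promoter, the 3 fitted Slc7a11 regions, the Gsr promoter and both fitted Gsr intron regions, 41.2% of the 17 against 4.46% of the 23970. Only a region with every HADA library below every control can have this order, so these shares are a description and not a test. The share among such regions alone was not counted. On the centred pileups used for the calls 5 of the 17 (29.4%) had this order, against 5.06%, and only 2 of the 7, the Slc7a11 promoter and the region at 36840 bp, kept it. The part of the neutrophil signal in these differences was not tested.

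The B cell sum, over 8 genes with a peak in some library, was 28.4 to 219.8 in the controls and 510.1 to 595 in HADA libraries, and control 3 had a peak at only 4 of the genes, the others counting as 0. The T cell sum, with 8 of 8 genes, was 234.7 to 319.9 and 376 to 432, although its largest term, Cd3d, overlapped between groups, as did Cd3g and Cd28. The NK cell sum, with 5 of 6 genes and Klrk1 at none, was 13.1 to 26.1 and 30.3 to 51.0. It was mostly Nkg7, while Ncr1 had a peak in control 1 and control 2 only and a gene without a peak counted as 0. The erythroid and platelet sum, with 6 of 8 genes and Alas2 and Gp9 at none, was 76.5 to 90.0 and 162.7 to 200.4, mostly from Klf1 at 57.9 to 75.8 and 120.0 to 153.4. All 4 lists were higher in every HADA library, as were the levels of the Gclc upstream region and the Prdx1 promoter, and their part in those results was not tested. The monocyte sum, with 8 of 8 genes, overlapped at 179.3 to 257.1 and 216.8 to 254.7, but its genes did not move together. Klf4, the largest term, and Ly6c2 and Ccr2 were higher in every HADA library than in any control, whereas Lyz2 was lower, at 24.8 to 30.8 in the controls and 6.16 to 11.05 in HADA libraries, as were Cx3cr1 and F13a1. Control 3 had the highest neutrophil and the lowest B cell sum, and it was the highest library at the promoters of 8 of the 10 genes. Without control 3 the 17 regions gave 9 lower and 1 higher call, and all 23970 regions gave 5174 lower and 3967 higher calls. The log2 differences of the lower regions then ran from −1.86 to −0.77 (limma adjusted p from 0.00889 to 0.0190), and that of the Gclc upstream region was 0.55 (limma adjusted p = 0.0349). The uncalled promoters of Nqo1, Gclm, Txn1 and Txnrd1 were then at −0.33, −0.37, −0.28 and −0.24, and those of Gclc and Prdx1 at 0.27 and 0.37. The Txnrd1 region at 7510 bp was then at −0.35.

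**Figure D5:**
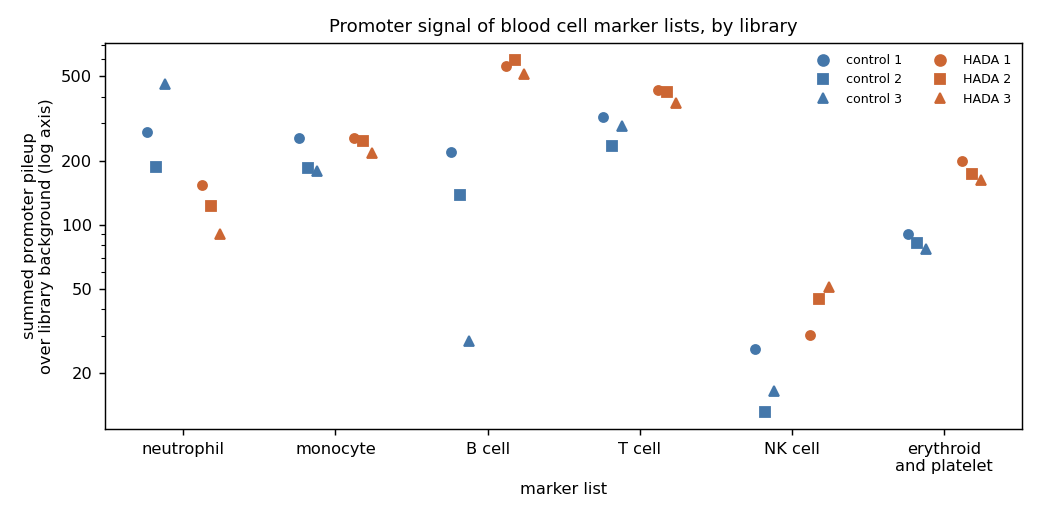
Summed promoter pileup over library background (log y axis) of 6 blood cell marker lists (x axis) in each library, blue for control and orange for HADA. The neutrophil sum is lower in every HADA library than in every control library, the monocyte sums overlap and the other 4 sums are higher in HADA.

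A wider list of 25 genes linked to NRF2 was counted at promoters for comparison. A region present in all libraries was found for 22 of them, with 4 higher, 2 lower and 16 not called, and a median log2 difference of −0.02. Beside the 20.3% higher and 9.65% lower among all regions within 1 kb of a start, these counts are near the background and are no result about the list. The called promoters are named as a description. The lower promoters were those of Mgst1, a membrane-bound glutathione transferase (−1.88, limma adjusted p = 0.00903), and Prdx6, a peroxiredoxin (−0.80, limma adjusted p = 0.0422). The higher promoters were those of Ephx1, the microsomal epoxide hydrolase (1.24, limma adjusted p = 0.0145), Blvra and Blvrb, which reduce biliverdin and related compounds (1.00 and 0.61, limma adjusted p = 0.00954 and 0.0222), and Cat, catalase (0.67, limma adjusted p = 0.0308). Hmox1 makes the biliverdin that Blvra reduces, and its own promoter was lower. Gsta4 had a promoter peak in 1 library only, and Me1 and Pir had none. Among all fitted regions, the 2105 with the TGACNNNGC letters near the summit were called higher in 17.5% and lower in 20.7% of cases, with a median log2 difference of 0.0037.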

How the data were processed

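ATAC-seq peak lists of 3 control and 3 HADA libraries were analysed. Per the labels, the authors' processing used FastQC, Trimmomatic, Bowtie2, Picard, MACS2, featureCounts and bedtools with the GRCm39 build. Versions, MACS2 options and whether reads were moved to the Tn5 cut are not given in the sources used here, so a summit may lie a few bases from the cut sites. Each deposited list was called on 1 library, with the authors' fold enrichment of the summit over local background (a ratio) and a −log10 p-value and −log10 q-value per peak. The other deposited columns (a display score and the summit offset) served for positions only.

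The summit pileup and local background were solved from the deposited fold, taken as (pileup + 1) / (background + 1), and the Poisson −log10 p-value, and returned the deposited values for 100% of peaks. The most frequent background of a list was taken as the genome-wide background of its library. Total reads were not analysed here. Peaks of the 21 main chromosomes that shared 1 bp were merged over the 6 lists, and a region took the tallest summit of each library. Genes came from the GENCODE annotation of GRCm39, the distance being given from the canonical transcript. A RefSeq promoter table of another build was not used here.

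Log2 pileups centred on the median shared region were compared with limma 3.58.1 in R 4.3.3 (only regions in all 6 libraries, Benjamini-Hochberg, 0.05). The fit was first run on simulated data with independent normal noise, which checks the code and not the error rate in these data. A region absent from a list was not imputed, except in the alternative with regions in at least 3 libraries. Presence was compared with Fisher's exact test. Copies of the 50 bases at a summit were found by exact match on either strand. Marker lists were summed over promoter regions within 3 kb of a start, and the wider NRF2 list was counted within 1 kb of a start. All 10 genes are described, with the promoter region, each upstream region, the 2 tallest body regions and any body region called, and the other regions by their listed values. The wider list is named by up to 6 promoters with the smallest adjusted p. The genes and lists were chosen with earlier results of these data known. The comparison of local backgrounds and of the order of libraries was chosen after values had been seen. Alternatives were other scalings, the rank and log2 of the fold, the rank of the pileup (the log2 of the fold, the rank of the pileup and centring near starts were chosen after seeing the data), peak thresholds, merging rules, a replicate block and leaving out each library.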

Additional observations from a re-analysis of the deposited data

How the results depend on the processing

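Of 304 values of the 17 fitted regions under alternative settings, 262 kept their direction and side of the threshold, 28 lost the call, 7 gained one and 9 changed sign, 2 of which also lost the call. Of the sign changes 6 came with the rank of the fold: the promoters of Nqo1 (0.0189 normal scores), Gclc (−0.32), Txnrd1 (0.0733) and Slc7a11 (0.0673), the Txnrd1 region at 7510 bp (0.0798) and the Gsr region at 11360 bp (0.0388). The other 3 came with the log2 fold: the Gclc (−0.279) and Txnrd1 (0.0185) promoters and the Txnrd1 region at 7510 bp (0.0499). The rank of the fold called 0 regions lower and 0 higher, and the log2 fold, chosen after seeing the data, 1 lower and 0 higher. With the rank of the pileup, also chosen after seeing the data, 8 lower calls and 1 higher were made. The single higher call became 2 without centring and 0 with centring on regions near starts, a setting chosen after seeing the data. Leaving out 1 library gave 0 to 2 higher and 6 to 10 lower calls, the lowest without HADA 2, where calls over all 23970 regions fell from 4291 to 801 higher and from 5769 to 2056 lower. Over all regions 4656 were higher and 5842 lower without control 1, and 3412 and 5518 without control 2. Without HADA 1 these counts were 1892 and 3461, and without HADA 3 they were 1583 and 3786. Prdx1 was called higher without centring (adjusted p = 0.0098) and without control 1 (adjusted p = 0.0392), and Gclm, Txnrd1, at both regions, and Txn1 were called lower with centring near starts (adjusted p from 0.0361 to 0.0472). Same-numbered libraries correlated at −0.08, 0.08 and −0.38 in their deviations from group means. With 3 libraries a group this cannot tell whether the numbers mark a shared litter, day or batch, and the labels do not say. The fit with the replicate block gave 9 lower and 1 higher call, with 5660 lower and 2991 higher over all regions. Peaks per 10000 differed by −1.41 between groups, −1.96 at a −log10 q of at least 10, −0.979 with as many of the strongest peaks taken from every list and −0.70 for summits within 1 kb of a start. With 3 libraries a group and unknown read depth, a peak missing from a list may lie just under the limit of calling.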
